A study of Homo sapiens with 12 samples.

Results

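Interferon-stimulated genes are genes whose transcription follows interferon signalling, and 31 of them were followed through RNA sequencing of AC16 cells and of the exosomes released by those cells. The set was a list of symbols, named with no threshold on a measured value but with earlier results of these data known. It covered the IFIT family, the MX GTPases, double-stranded RNA sensors and effectors, the ISG15 system, transcription factors of the response and further antiviral effectors. Of the 31, 30 had a row in the count tables of cells and 23 in those of exosomes, among 15381 genes listed in cells, 11973 in exosomes and 15414 in either. CMPK2, a mitochondrial nucleotide kinase, had a row in neither table used here and was not analysed here.

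AC16 is an established human line derived from ventricular cardiomyocytes fused with fibroblasts, and exosomes are small vesicles that cells secrete. There were 4 groups of 3 libraries, 12 in all: exosomes labelled Ang, exosomes labelled Con, cells labelled Ang and cells labelled Con. All 12 came from the same line, with no genotype that differed between groups. The sources used here do not say what Ang and Con stand for, nor give an agent, a dose or a time of exposure. The series' design text places the work in hypertrophic cardiomyocytes and their exosomal RNA. Nothing in the labels ties the 3 libraries of a group to separate cultures, so p-values measure only the spread between libraries, which may be technical.

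As background, type I interferons bind a shared receptor on the cell surface, and the JAK kinases on it phosphorylate STAT proteins. STAT2 and IRF9 then take part in a complex that binds interferon-stimulated response elements near the start of target genes. Many of the targets recognise viral RNA or block steps of viral replication.

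The promoters of the members are shown because the response element is the feature known to tie this gene set together. RefSeq entries (GRCh38.p14) of 300 bases, 250 before the start and 50 from the start on, were matched for 25 of the 31 members; IFIT2, MX2, OAS2, OASL, IRF7 and USP18 had none. The core GAAANNGAAA was searched on both strands, with overlapping matches counted. It was present in an entry of 17 of the 25 members (68%), against 3.57% of all 35116 entries and 4.38% of the 27305 genes with an entry. A match describes letters and is not a measured binding site. The members with an entry but no match were CMPK2, IFI35, IRF1, IRF9, OAS1, RIGI, STAT2 and XAF1. The 160 bases below belong to 4 members described in the results, each with 2 matches in the stretch. They are written 5′ to 3′ on the strand of the gene, with the matched letters in capitals, and lie at chr4:168318753-168318912 on the minus strand for DDX60, and on the plus strand at chr1:1013337-1013496 for ISG15, chr10:89392463-89392622 for IFIT1 and chr12:112938314-112938473 for OAS3.
DDX60: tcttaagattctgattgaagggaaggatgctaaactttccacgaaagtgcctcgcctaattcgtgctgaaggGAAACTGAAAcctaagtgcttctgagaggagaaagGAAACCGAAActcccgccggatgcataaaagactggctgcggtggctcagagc
ISG15: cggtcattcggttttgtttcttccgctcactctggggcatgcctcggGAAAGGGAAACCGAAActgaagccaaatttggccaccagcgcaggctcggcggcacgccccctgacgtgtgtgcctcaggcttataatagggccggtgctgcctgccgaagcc
IFIT1: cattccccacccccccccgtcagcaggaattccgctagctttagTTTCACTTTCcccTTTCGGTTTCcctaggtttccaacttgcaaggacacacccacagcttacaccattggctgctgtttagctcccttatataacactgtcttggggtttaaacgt
OAS3: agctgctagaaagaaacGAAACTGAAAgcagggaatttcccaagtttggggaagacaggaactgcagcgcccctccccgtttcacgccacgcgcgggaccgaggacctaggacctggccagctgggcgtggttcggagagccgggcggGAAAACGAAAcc
In the ISG15 promoter a pair of matches overlaps into a single run. In the IFIT1 promoter both matches stand on the opposite strand and so read as TTTC blocks. The DDX60 and OAS3 stretches each hold a pair of separate matches in the direction of the gene.

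Gene reads numbered 535442 to 587783 per library in Ang exosomes and 717263 to 745311 in Con exosomes, against 9202471 to 11212674 in cells. A count of 0 allows up to 3 reads, which is 5.1 to 5.6 reads per 1000000 in an Ang exosome library and 4.03 to 4.18 in a Con one, for counting error only. Extraction kit and library kit changed with the compartment, so compartment and kits cannot be told apart. Of 16 cardiomyocyte markers, 11 had a row in cells, while MYH6, MYL2, MYL7, TNNI1 and TBX5 had none. TTN stood at 75.6 to 87.9 CPM (counts per 1000000 gene reads after trimmed mean scaling) in cells, and GATA4 at 24.0 to 31.5 CPM. Each other listed one reached at most 4.14 CPM in a cell library, and TNNT2 at most 0.883 CPM. All 10 fibroblast markers were present, with COL1A1 at 2800 to 3361 CPM in cells but S100A4 at 1.07 to 2.40 CPM. Of 10 leukocyte markers, 5 had a row in cells, summing to 15.3 to 74.0 CPM in Ang cells and 21.1 to 22.3 CPM in Con cells. The highest of these sums was mostly CD68 in Ang replicate 3 (66.6 CPM), while PTPRC was at most 2.35 CPM in any cell library. In such bulk RNA, fewer cells that express a gene and less RNA per cell cannot be told apart.

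All listed members together had 977.5, 1027 and 954.7 reads per 1000000 in the 3 Ang cell libraries, against 905.2, 973.0 and 968.7 reads per 1000000 in the 3 Con cell libraries, and these ranges overlap. Per kilobase of exon, the level over the 6 cell libraries was highest for IFI6, a small membrane protein of the endoplasmic reticulum and mitochondria, at 33.9 CPM per kb. ISG15, a ubiquitin-like protein that is attached to other proteins, followed at 26.4 CPM per kb. EIF2AK2, the kinase PKR that stops translation on double-stranded RNA, stood at 23.3 CPM per kb, and STAT2 at 21.0 CPM per kb. At the low end of the order stood RSAD2 (viperin, a radical enzyme that makes a chain-terminating nucleotide) at 0.0753 CPM per kb, MX2 at 0.182 and IFI44L at 0.210. The order depends on exon length, taken as all annotated exons of a gene merged, at 865 bases for IFI6 and 10753 for EIF2AK2.

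Spread between libraries of a group was not alike for all members. The coefficient of variation of CPM had a median over the 30 listed members of 8.95% in Ang cells and 12.9% in Con cells. EIF2AK2 varied least, by 2.27% in Ang cells and 0.379% in Con cells. XAF1, a promoter of apoptosis, varied most among Ang cell libraries (119%), where it had 11, 68 and 6 reads, against 38, 16 and 35 reads in Con cells. XAF1 shares 38.3% of its exon length with the other strand, so its reads may be shared. In exosomes the same median over 23 members was 73.5% in Ang and 49.2% in Con.

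**Figure D1:**
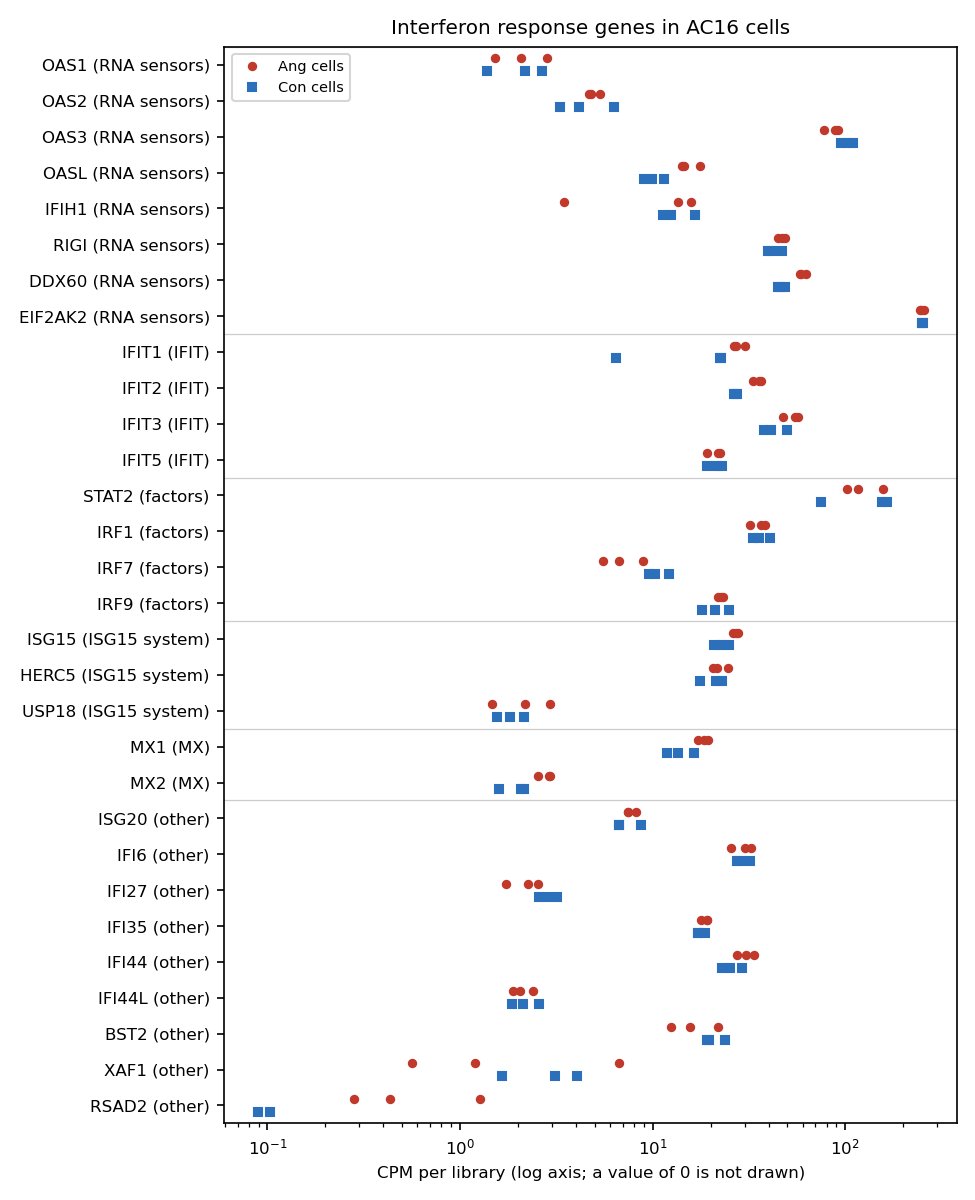
Each point is 1 cell library (circles, Ang; squares, Con) and the log axis gives CPM of each member with a row in cells, ordered by role. EIF2AK2 stands near 250.2 CPM in both groups with almost no spread, DDX60, IFIT2 and OASL have their Ang points to the right of their Con points, and IRF7 and OAS3 to the left.

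The first comparison asked whether the response differed between Ang and Con cells. DDX60, IFIT1, IFIT2, OASL, MX1, MX2 and ISG15 were higher in each Ang library than in any Con library, by 1.18-fold to 1.63-fold in the fitted values, while IFI27, IRF7 and OAS3 were lower in each Ang library. None of these differences passed the test. Of the 29 members that passed the filter on low counts, 0 had an adjusted p under 0.05 by edgeR's quasi-likelihood test with Benjamini-Hochberg adjustment, and over all 13331 genes tested the percentage called was also 0. DESeq2 gave an adjusted p to 23 members and 11513 genes in cells. Of these, 1 member (DDX60, 4.35%) and 60 genes in all (0.521%) passed. At an unadjusted p under 0.05 in edgeR there were 8 of 29 members (27.6%), against 6.12% of all genes tested. The groups did not overlap with Ang higher for 7 members (24.1%), against 7.01% of all genes, and with Ang lower for 3 (10.3%), against 6.89%. The fitted log2 fold change was positive for 19 of the 29 (65.5%), against 49.8% of all genes, with a median of 0.07 over the members and -0.0008 over all genes tested.

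Among the RNA sensors and effectors, DDX60, a helicase that acts with RIG-I-like receptors (ENSG00000137628, GRCh38 chr4:168216293-168318807, minus strand), stood at 62.5, 58.6 and 59.1 CPM in the 3 Ang cell libraries, against 46.0, 48.5 and 44.8 CPM in the 3 Con ones. All Ang libraries were above all Con libraries, and the gap between the groups was wider than the range of either. The means were 60.1 ± 2.15 CPM in Ang cells and 46.4 ± 1.86 CPM in Con cells (SD, n = 3 each), a log2 fold change of 0.37 (SE 0.0673). This was rank 24 of the 13331 genes by p, with an unadjusted p of 0.00166 and an adjusted p of 0.781 in edgeR, against an adjusted p of 0.0185 in DESeq2. OASL, an oligoadenylate synthetase relative without enzyme activity that enhances RIG-I signalling (ENSG00000135114, chr12:121019111-121039242, minus strand), stood at 14.3, 14.6 and 17.7 CPM in Ang cells, against 9.05, 11.5 and 9.89 CPM in Con cells. The groups did not overlap, and the log2 fold change was 0.61 (SE 0.146, edgeR adjusted p = 0.781).

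Other sensors lay closer together or moved the other way. OAS3, an oligoadenylate synthetase activated by double-stranded RNA (ENSG00000111331, chr12:112938352-112973249, plus strand), stood at 88.2, 92.2 and 77.4 CPM in Ang cells, against 103.3, 95.1 and 109.2 CPM in Con cells. Here the Ang libraries were the lower ones and did not overlap the Con libraries, with a log2 fold change of -0.25 (SE 0.0938, edgeR adjusted p = 0.795). EIF2AK2 averaged 249.0 ± 5.64 CPM in Ang cells and 251.4 ± 0.953 CPM in Con cells (SD, n = 3 each), and its log2 fold change was -0.01 with an SE of 0.042. RIGI, the sensor of viral RNA ends, stood at 48.6, 46.8 and 44.65 CPM in Ang cells, against 39.8, 41.6 and 46.7 CPM in Con cells, where Con replicate 3 lies within the Ang range. IFIH1 (MDA5, a sensor of long double-stranded RNA) had 32, 138 and 168 reads in Ang cells, against 155, 110 and 140 reads in Con cells. Ang replicate 1 stood far below the other libraries, and without it the log2 fold change of IFIH1 turned to 0.13, against -0.29 with it.

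Of the 4 IFIT genes, which lie close together on chromosome 10, IFIT1, IFIT2 and IFIT3 had positive log2 fold changes in cells and IFIT5 had 0.0005 (SE 0.112). IFIT2 (ENSG00000119922, chr10:89283694-89309276, plus strand) stood at 33.3, 36.6 and 35.6 CPM in Ang cells, against 26.3, 26.9 and 27.5 CPM in Con cells. The groups were apart, with means of 35.2 ± 1.67 CPM in Ang cells and 26.9 ± 0.620 CPM in Con cells (SD, n = 3 each), a log2 fold change of 0.39 (SE 0.0750) and an edgeR adjusted p of 0.781. IFIT3, its partner in a complex, stood at 56.6, 47.7 and 54.9 CPM in Ang cells, against 49.7, 37.7 and 41.2 CPM in Con cells, where Con replicate 1 lies above Ang replicate 2. IFIT1, which recognises RNA without a host-type cap, stood at 30.3, 27.2 and 26.3 CPM in Ang cells, against 22.3, 22.7 and 6.42 CPM in Con cells. The spread of IFIT1 lay in Con replicate 3, and its log2 fold change of 0.71 (SE 0.467) was 0.31 (SE 0.107) without that library.

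Among the MX GTPases, which form rings on viral ribonucleoproteins and capsids, MX1 averaged 18.4 ± 1.09 CPM in Ang cells and 13.9 ± 2.32 CPM in Con cells (SD, n = 3 each). The less abundant MX2 averaged 2.80 ± 0.218 CPM in Ang cells and 1.93 ± 0.294 CPM in Con cells. Neither overlapped between groups, and edgeR gave log2 fold changes of 0.40 (SE 0.145) and 0.53 (SE 0.194) with an adjusted p of 0.795 for both. In the ISG15 system, ISG15 (ENSG00000187608, chr1:1001138-1014540, plus strand) stood at 26.1, 27.0 and 27.6 CPM in Ang cells, against 22.7, 24.8 and 20.8 CPM in Con cells. The groups did not overlap, with a log2 fold change of 0.24 (SE 0.0951). HERC5, its main ligase, and USP18, the protease that removes it, overlapped between groups with log2 fold changes of 0.11 (SE 0.136) and 0.24 (SE 0.308).

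Of the 4 transcription factors, 1 had a positive log2 fold change in cells and 3 a negative one. IRF7, the factor that amplifies type I interferon production (ENSG00000185507, chr11:612553-615999, minus strand), stood at 5.56, 6.67 and 8.93 CPM in Ang cells, against 9.58, 10.2 and 12.1 CPM in Con cells. All Ang libraries were below all Con libraries, with a log2 fold change of -0.59 (SE 0.209, edgeR adjusted p = 0.795). STAT2 stood at 115.8, 156.1 and 102.3 CPM in Ang cells, against 74.7, 165.3 and 154.2 CPM in Con cells, so the Con libraries alone spanned the Ang ones. Its log2 fold change of -0.08 (SE 0.336) ranged between -0.36 and 0.12 when 1 library was left out. IRF9 and IRF1 overlapped, at log2 fold changes of 0.08 (SE 0.137) and -0.04 (SE 0.114). IRF9 shares 48.4% of its exon length with a gene on the same strand and IRF1 shares 22% with the other strand, so their reads may be shared with those neighbours.

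Of the 10 other effectors, 8 were tested in cells, 4 with a positive and 4 with a negative log2 fold change between -0.39 and 0.25. IFI27, a small mitochondrial protein at the low end, was the member with separate groups, at 1.74, 2.55 and 2.26 CPM in Ang cells, against 3.19, 2.58 and 2.85 CPM in Con cells (edgeR adjusted p = 0.834). IFI6, the member with the highest level per kilobase, averaged 29.4 ± 3.48 CPM in Ang cells and 29.2 ± 2.38 CPM in Con cells (SD, n = 3 each). RSAD2 fell under the filter on low counts, with 4, 13 and 3 reads in Ang cells, against 0, 1 and 1 read in Con cells. The Ang libraries had more, in all 20 reads against 2, a ratio of 10.1 once divided by all gene reads with an exact 95% interval of 2.46 to 89.3 for counting error only.

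**Figure D2:**
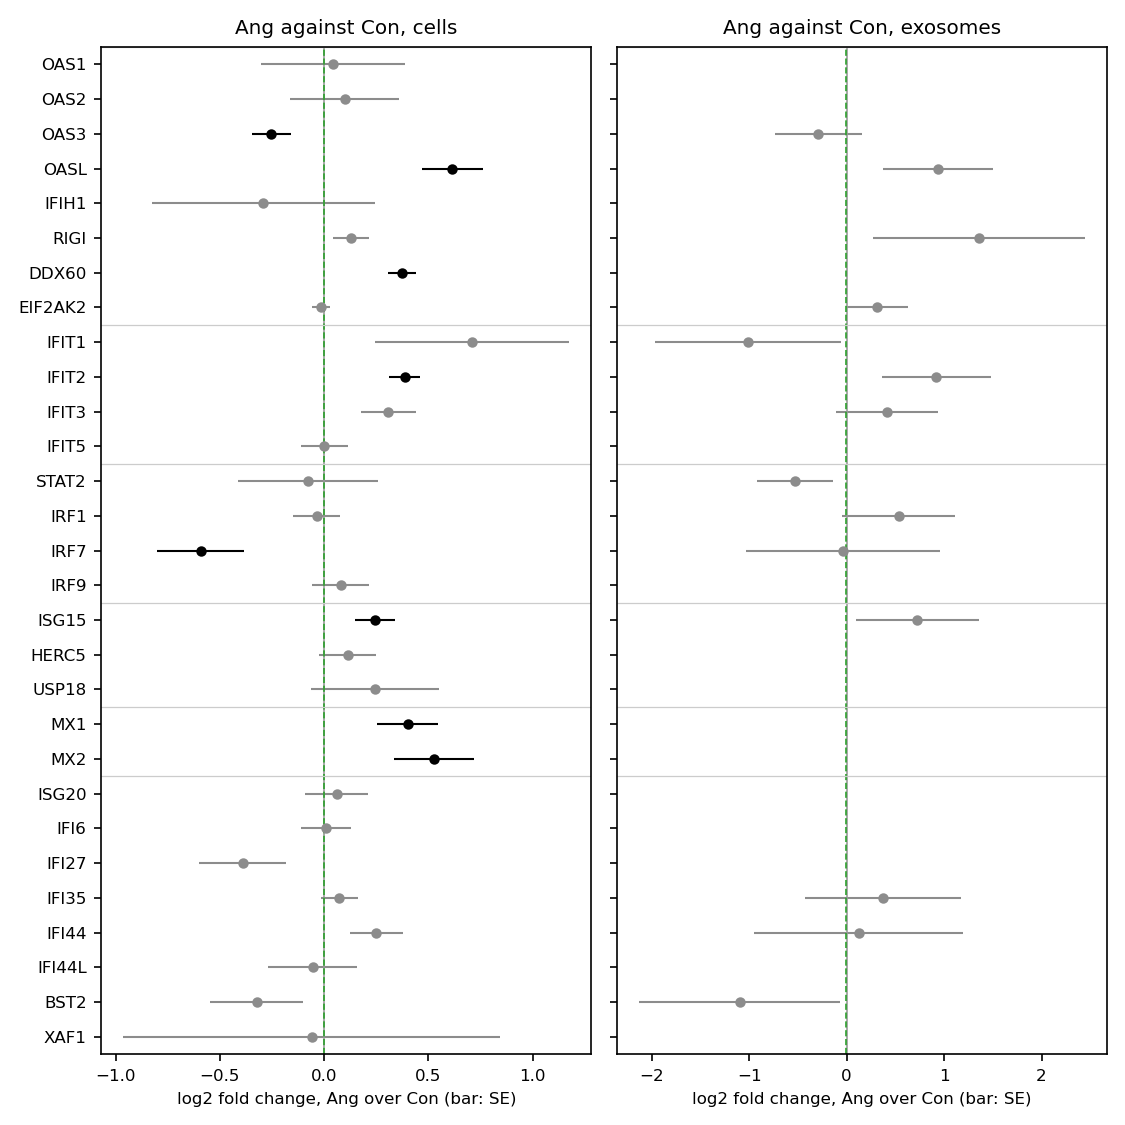
Points give the fitted log2 fold change of Ang over Con for each member tested, with its SE as the bar, in cells on the left and in exosomes on the right; black points have an unadjusted p under 0.05, and the dashed line is the median of all genes tested. In cells the 8 black points are DDX60, IFIT2, OASL, MX1, MX2 and ISG15 on the right and OAS3 and IRF7 on the left, while exosomes have none and much longer bars.

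The second comparison asked the same of the exosomes. There, interferon transcripts were few: the 23 members with a row had 12 to 404 reads each over the 6 libraries, and 11 of them had 0 reads in at least 1 library. Of the 14 members that passed the filter, 0 passed the test in edgeR (Benjamini-Hochberg adjusted p under 0.05), where 0.012% of the 8327 genes tested did. None had an unadjusted p under 0.05 either, against 3.79% of all genes, and DESeq2 called 0 members and 16 genes in all (0.192%). OASL was the 1 member of 14 (7.14%) whose groups did not overlap with Ang higher, against 5.18% of all genes, and 0 of 14 did so with Ang lower, against 5.6%. The log2 fold change was positive for 9 of the 14 (64.3%), against 49.8% of all genes, with a median of 0.34 over the members and -0.0021 over all genes tested. Over 25 other interferon-stimulated genes in the same fit, a list described below, it was positive for 4 and the median was -0.30. Ang replicate 3 stood apart, with 734.0 member reads per 1000000, against 540.5 and 484.9 in the other Ang exosomes and 471.6 to 568.9 in Con exosomes, and had the highest CD68 (176.6 CPM). Without it the median over the members was 0.14, and the part of CD68 in the result was not tested.

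OASL stood at 31.5, 33.3 and 32.6 CPM in Ang exosomes, against 8.25, 18.05 and 24.35 CPM in Con exosomes, from 17, 19 and 17 reads and 6, 13 and 17 reads. The Ang libraries were close together and above the Con libraries, with a log2 fold change of 0.94 (SE 0.566, edgeR adjusted p = 0.999). IFIT2 had 22, 13 and 39 reads in Ang exosomes, against 15, 25 and 12 reads in Con exosomes, and the ranges overlap. RIGI had 5, 10 and 30 reads in Ang exosomes, against 0, 8 and 15 reads in Con exosomes, with most of the Ang reads in replicate 3. STAT2 had 19, 28 and 34 reads in Ang exosomes, against 61, 58 and 36 reads in Con exosomes. By CPM its ranges overlap, at 35.2, 49.1 and 65.3 in Ang exosomes, against 83.9, 80.5 and 51.6 in Con exosomes. Its log2 fold change was -0.53 (SE 0.394). The SEs of the 14 members were 0.321 to 1.09 on the log2 scale.

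**Figure D3:**
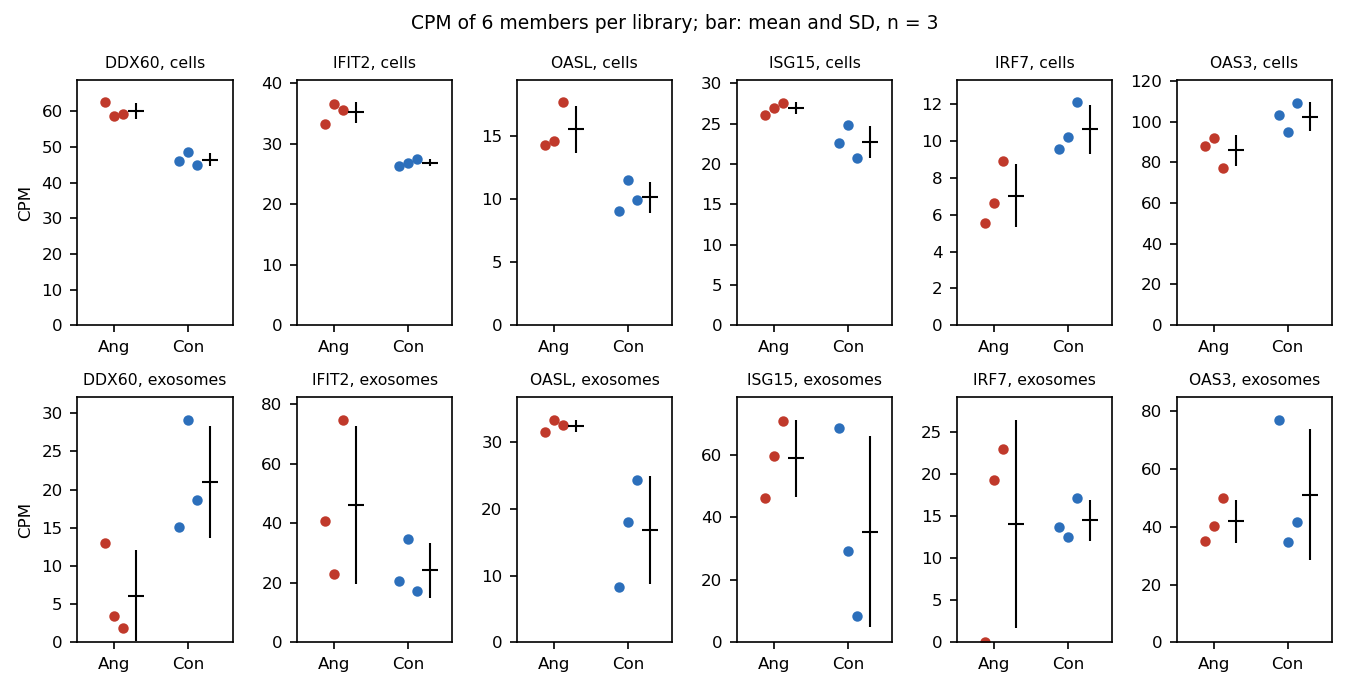
CPM of DDX60, IFIT2, OASL, ISG15, IRF7 and OAS3 in every library, cells above and exosomes below, with Ang left of Con in each panel and the mean and SD (n = 3) as the bar beside the points. DDX60 averages 60.1 CPM in Ang cells and 46.4 CPM in Con cells, but 6.13 CPM in Ang exosomes and 21.0 CPM in Con exosomes.

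The third comparison asked whether the Ang against Con difference was itself different in exosomes and in cells. DDX60 went opposite ways: its Ang libraries were the high ones in cells and the low ones in exosomes, with no overlap in either. No member passed this test in edgeR (adjusted p under 0.05: 0 of 23 members, 0.0254% of 11811 genes), 2 members had an unadjusted p under 0.05 (8.7%, against 8.22% of all genes), and DESeq2 called 1 member, DDX60 (adjusted p = 0.00535), and 368 genes in all (3.12%). Groups apart in both compartments in opposite directions were seen for 1 of 23 members (4.35%), against 0.643% of all genes. DDX60 had 7, 2 and 1 reads in Ang exosomes, against 11, 21 and 13 reads in Con exosomes. These are 10 reads against 45, a ratio of 0.292 once divided by all gene reads with an exact 95% interval of 0.131 to 0.587 for counting error only. The log2 fold change in exosomes minus that in cells was -2.16 (SE 0.624, unadjusted p = 0.00441, edgeR adjusted p = 0.478). With 1 library left out it ranged from -3.32, without Ang exosome replicate 1, to -1.75, with edgeR adjusted p between 0.0719 and 0.863. IFIT5, the other member with an unadjusted p under 0.05, had 6, 2 and 2 reads in Ang exosomes, against 2, 0 and 0 reads in Con exosomes. Its ratio was 6.56 on the same footing, with an exact 95% interval of 1.4 to 61.6. Neither DDX60 nor IFIT5 passed the filter on low counts in the exosome libraries alone, and both entered this fit through their counts in cells.

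The fourth comparison set exosomes against cells over all 12 libraries, among genes listed in both. Of 23 members tested, 7 were lower in exosomes, 2 were higher and 14 did not pass. The lower ones were EIF2AK2, DDX60, IFIT5, OAS3, STAT2, HERC5 and IRF9, by 1.79-fold to 7.79-fold, and the higher ones were OASL and ISG15, by 2.09-fold and 2.08-fold. Of the 7 lower members, 4 (DDX60, IFIT5, HERC5 and IRF9) did not pass the filter on low counts in the exosome libraries alone and entered this fit through their counts in cells, whereas both higher members passed it in exosomes too. The 9 calls are 39.1% of the members tested, against a background of 37.1% of the 11811 genes in edgeR, and DESeq2 called 10 members against 48.4% of all genes. For lower calls the share was 30.4% of members against 19.5% of all genes, and for higher calls 8.7% against 17.6%. The members' median log2 fold change was -0.70 and that of all genes -0.15. Exosome and cell libraries did not overlap for 3 members, all lower in exosomes (13%, against 13.1% of all genes), and for 0 members with exosomes higher (10.1% of all genes). Within Con libraries alone 2 of 23 members passed (EIF2AK2, and IFIT5 with 2, 0 and 0 exosome reads), and within Ang libraries alone 5 of 23. Fewer genes were called in all in each of these contrasts too, and the last section gives those counts.

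Among the RNA sensors and effectors, EIF2AK2 (ENSG00000055332, chr2:37099210-37157065, minus strand) had a lowest, median and highest value of 70.5, 116.2 and 146.2 CPM in the 6 exosome libraries, against 228.7, 233.6 and 238.8 CPM in the 6 cell libraries, on the scale of the fit to all 12. The exosome libraries were all below the cell libraries. It fell by 1.04 on the log2 scale (SE 0.149, edgeR adjusted p = 0.00018). DDX60 had 2.002, 14.7 and 30.8 CPM in exosomes, against 41.9, 49.9 and 58.5 CPM in cells, again with no overlap. Its log2 fold change of -2.05 (SE 0.306, edgeR adjusted p = 0.000249) is 4.14-fold lower in exosomes. OAS3 had 36.7, 42.9 and 80.6 CPM in exosomes, against 72.7, 87.2 and 102.0 CPM in cells, where only Con exosome replicate 1 reached the cell range. It fell by 0.86 on the log2 scale (SE 0.201, edgeR adjusted p = 0.00536). RIGI, at 0, 15.1 and 60.1 CPM in exosomes, against 37.1, 42.8 and 45.4 CPM in cells, did not pass, at a log2 fold change of -1.20 (SE 0.481, edgeR adjusted p = 0.0688).

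OASL ran the other way, with 8.63, 29.3 and 34.9 CPM in exosomes, against 8.44, 12 and 16.6 CPM in cells. Of the exosome libraries, only Con replicate 1 lay within the cell range. It rose by a log2 of 1.06 (SE 0.271, edgeR adjusted p = 0.00863). ISG15 had 9.01, 55.5 and 74.1 CPM in exosomes, against 19.4, 23.7 and 26.0 CPM in cells. Con exosome replicate 3 lay below every cell library. ISG15 passed with a log2 fold change of 1.05 (SE 0.337, edgeR adjusted p = 0.0268), but not without Con exosome replicate 1 (0.60, adjusted p = 0.104), Ang exosome replicate 3 (adjusted p = 0.0588) or Con cell replicate 3 (adjusted p = 0.0519).

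Within the IFIT family, IFIT5 stood apart from its neighbours on chromosome 10. IFIT5 (ENSG00000152778, chr10:89414586-89421001, plus strand) had 0, 3.28 and 11.7 CPM in exosomes, from 12 reads in all, against 17.8, 20.3 and 21.2 CPM in cells. The libraries did not overlap. Its fitted log2 fold change was -2.96 (SE 0.488, edgeR adjusted p = 0.000506) and moved to -5.77 without Con exosome replicate 1, the only Con exosome library with a read. IFIT1, IFIT2 and IFIT3 had fitted log2 fold changes of 0.00 (SE 0.514), 0.28 (SE 0.273) and 0.09 (SE 0.262), each with overlapping libraries and none passing the test.

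STAT2 had 36.9, 61.1 and 87.8 CPM in exosomes, against 69.7, 126.2 and 153.4 CPM in cells. It fell by 0.93 on the log2 scale (SE 0.243, edgeR adjusted p = 0.0100), with Con cell replicate 1 inside the exosome range. IRF9, its partner, had 2.88, 9.14 and 18.02 CPM in exosomes, against 16.8, 20.8 and 23.3 CPM in cells. It fell by 1.07 (SE 0.386, edgeR adjusted p = 0.0456). HERC5 had 5.87, 11.6 and 17.5 CPM in exosomes, against 16.4, 20.0 and 23.2 CPM in cells, and fell by 0.84 (SE 0.289, edgeR adjusted p = 0.0379). The calls of IRF9 and HERC5 rest on nearly the full set of libraries. That of IRF9 was lost without any 1 cell library, Con exosome replicate 1 or 3 or Ang exosome replicate 1 or 2 (adjusted p up to 0.105). That of HERC5 was lost without any 1 cell library, Con exosome replicate 2 or 3 or Ang exosome replicate 2 (adjusted p up to 0.0911). IRF7 went the other way from the other factors, at 0, 16.2 and 24.0 CPM in exosomes, against 5.20, 8.66 and 11.3 CPM in cells, with a log2 fold change of 0.88 (SE 0.465) that did not pass in edgeR (adjusted p = 0.155) and did in DESeq2 (0.0125).

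**Figure D4:**
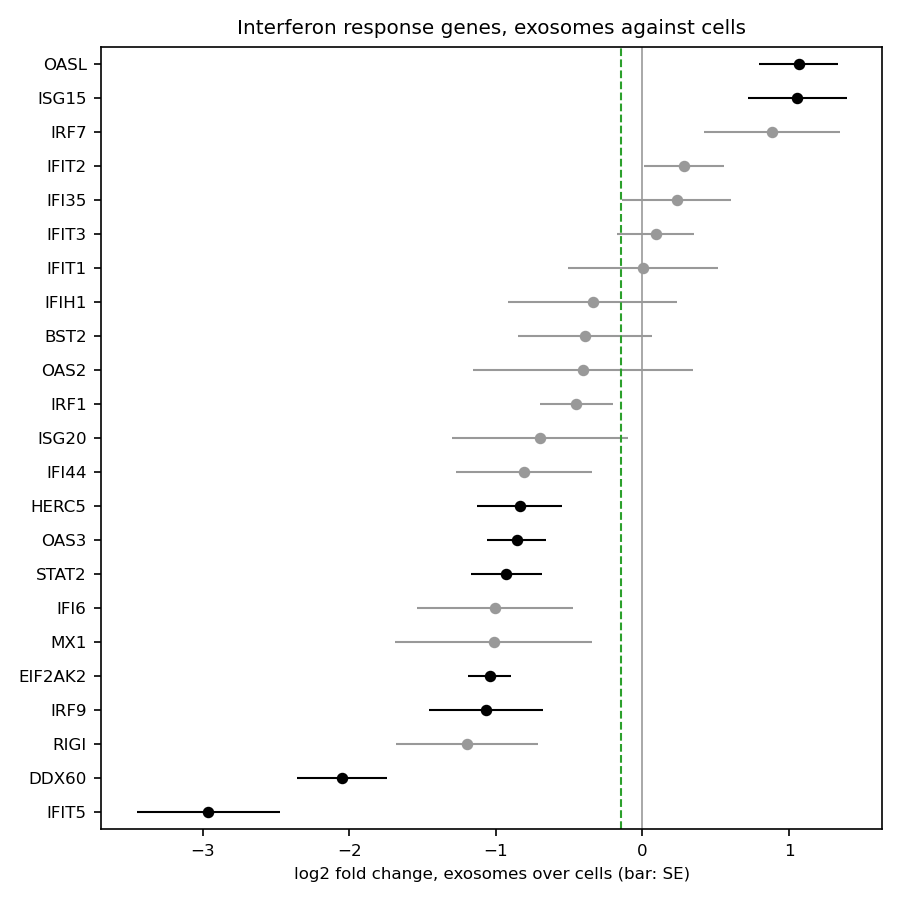
Fitted log2 fold change of exosomes over cells for the 23 members tested, in descending order, with the SE as the bar; black points passed the edgeR test, and the dashed line is the median of all genes tested (-0.15). OASL and ISG15 are the black points on the right, and IFIT5 at -2.96 and DDX60 at -2.05 lie farthest to the left.

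None of the 5 tested effectors outside these families passed between exosomes and cells with all libraries. IFI6 came nearest, with 0, 20 and 3 reads in Ang exosomes and 2, 10 and 14 reads in Con exosomes, and a log2 fold change of -1.01 (SE 0.531, edgeR adjusted p = 0.157). Without Ang exosome replicate 2, IFI6 passed at -2.15 (adjusted p = 0.00752), and so did ISG20, an exonuclease (-4.34 against -0.70, adjusted p = 0.0216). In all, 6 members that did not pass did so with 1 exosome library left out: these 2, MX1 and IRF1 without Ang replicate 3, RIGI without Ang or Con replicate 3, and IRF7 without Ang replicate 1. Over all genes, 3539 to 4535 were called with 1 library left out, against 4380 with all. How many other genes gained a call in the same way was not counted, so the 6 cannot be read as particular to the members. The 7 members with a row in cells and none in exosomes (MX2, OAS1, IFI27, IFI44L, XAF1, USP18 and RSAD2) were the least abundant in cells. At their share of the cell reads, 1.41 to 11.2 reads would fall in the 6 exosome libraries together, and the lowest total of any listed exosome gene was 7 reads. Members listed in cells had a row in exosomes in 76.7% of cases, against 77.6% of all genes listed in cells. Across the 23 members the log2 fold change of exosomes over cells had a Spearman correlation of -0.415 with exon length, and across 11799 genes of -0.214, as a description, since all these values come from the same 12 libraries.

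No circular RNA of the 5179 listed in cells or the 939 listed in exosomes lay within any of the 31 members, while 15.3% of the genes listed in cells and 5.65% of those listed in exosomes held at least 1. A junction supported by a single read is listed as 0 in these tables.

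The rest of the pathway was read from lists of its other genes. Of 15 interferon genes, 3 had a row in cells and 0 in exosomes. IFNE, an interferon of epithelia, had 21, 10 and 14 reads in Ang cells, against 16, 12 and 21 reads in Con cells, and IFNA1 and IFNK had at most 7 reads in any library. No gene of the receptor and JAK-STAT, nucleic acid sensing, other interferon-stimulated and antigen presentation lists passed between Ang and Con in either compartment by edgeR. At an unadjusted p under 0.05 there were 1 of 16, 1 of 18, 0 of 34 and 0 of 17 in cells, and 2 of 11, 1 of 13, 0 of 25 and 1 of 13 in exosomes, against 6.12% and 3.79% of all genes tested. Log2 fold changes were positive for 9 of 16, 8 of 18, 20 of 34 and 5 of 17 in cells. In exosomes they were positive for 5 of 11, 7 of 13, 4 of 25 and 8 of 13. The other interferon-stimulated genes had a median of -0.30 in exosomes, where the members' was 0.34. In cells DESeq2 called 1 of 15, 0 of 17, 0 of 34 and 0 of 17 genes with an adjusted p, against 0.521% of all genes. In exosomes it called 0 in each of these lists. The gene called was SOCS3 (DESeq2 adjusted p = 0.000171). SOCS3, the feedback inhibitor of JAK kinases, was named after its values were seen. It had 512, 610 and 670 reads in Ang cells, against 382, 417 and 449 reads in Con cells, with a log2 fold change of 0.53 (SE 0.0761, edgeR adjusted p = 0.451). All Ang libraries were above all Con libraries, as they were for 7.01% of all genes tested in cells.

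Between exosomes and cells, genes of each list passed in both directions, as did 17.6% (higher) and 19.5% (lower) of all genes tested, whose median log2 fold change was -0.15. Of 14 receptor and JAK-STAT genes tested, 3 were higher and 5 lower in exosomes, with a median log2 fold change of -0.21. SOCS1, a feedback inhibitor like SOCS3, rose by 2.72 (SE 0.253), with 23, 26 and 23 reads in Ang exosomes and 19, 23 and 39 reads in Con exosomes, against 61 to 90 reads in the far deeper cell libraries. The receptor chains IFNGR1 (-2.24, SE 0.523) and IFNAR2 (-1.99, SE 0.460) and the kinase JAK2 (-1.48, SE 0.271) were lower. None of these lower genes passed the filter on low counts in the exosome libraries alone, and they entered this fit through their counts in cells. IFNGR1 had 2, 4 and 4 reads in Ang exosomes and 8, 0 and 0 in Con exosomes. IFNAR2 had 7, 1 and 5 against 0, 7 and 4 reads, and JAK2 6, 5 and 2 against 22, 10 and 24 reads. Of 16 nucleic acid sensing genes, 1 was higher and 4 lower, among them RNF135, a ubiquitin ligase of RIG-I (1.44, SE 0.403), and STING1, the adaptor of DNA sensing (-0.74, SE 0.215). Of 33 other interferon-stimulated genes, 5 were higher and 7 lower. Named by size, these were the ADP-ribosyltransferase family members PARP9 (-3.53, SE 0.537) and PARP14 (-2.97, SE 0.579), TRIM14, an adaptor of mitochondrial antiviral signalling (2.13, SE 0.447), and the GTPase GBP1 (-1.47, SE 0.512). PARP9 and GBP1 also failed that filter in exosomes alone. PARP9 had 0, 0 and 4 reads in Ang exosomes and 0, 3 and 3 in Con exosomes, and GBP1 0, 15 and 2 against 20, 5 and 4 reads. Of 17 antigen presentation genes, 2 were higher and 5 lower, with the peptide-trimming enzymes ERAP1 (-1.95, SE 0.415) and ERAP2 (-1.46, SE 0.225) and the class I gene HLA-E (-1.13, SE 0.205) lower and HLA-B higher (1.10, SE 0.207). HLA genes are alike in sequence and their reads may be split between copies.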

How the data were processed

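Each of the 12 libraries had a deposited table of raw counts of reads per Ensembl gene and another per circular RNA junction, per the file headers. Per the submitters' processing notes, HISAT2 and StringTie were used with GRCh38. How reads were counted, whether strand was used and what was done with shared reads is not given in these sources. Genes with under 7 reads summed over the 6 libraries of a compartment are not listed there. The members, gene lists and tests were chosen with earlier results of these data known.

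Counts were tested across all genes with edgeR 4.0.16 in R 4.3.3 (quasi-likelihood test, two-sided, trimmed mean scaling, robust spread), on genes kept by filterByExpr (minimum count 10, minimum total 15), with Benjamini-Hochberg adjustment over all genes tested and a threshold of 0.05. Ang was tested against Con in the 6 libraries of each compartment. Exosomes against cells, and the difference of the Ang against Con changes, were fitted to all 12. Fold changes are fitted values. CPM carries the scaling of the compartment, or of all 12 libraries for exosomes against cells. Exon lengths and gene coordinates, counted from 1, come from GENCODE release 29, with all annotated exons of a gene merged for its length. Ratios of summed reads have exact Clopper-Pearson intervals.

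The rule for naming members took those past a test, the 4 with the smallest p in each Ang against Con comparison, the 4 highest and 4 lowest between exosomes and cells, and the 4 highest per kilobase. List genes were named if they passed, at most 4 a list, largest first; 1 such gene is not reported here. MX1, MX2, ISG15 in cells, OAS3 in cells, IFIT1, IFIT3, IFIH1, RSAD2, XAF1, IFI27 and SOCS3 in cells were described after their values were seen. The alternatives were DESeq2 1.42.0 started from the same genes, RLE size factors, no low-count filter and a replicate block. Further ones were each library left out in turn, 1 fit to all 12 libraries, and each condition alone. DESeq2 gave some genes no adjusted p, and its shares are of the genes with one. The scripts were tested on simulated counts.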

Additional observations from a re-analysis of the deposited data

Results flagged for a closer look

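DDX60 changed direction between compartments: its Ang libraries were above all Con libraries in cells and below all Con libraries in exosomes, and the log2 fold change in exosomes minus that in cells was -2.16 (SE 0.624, edgeR adjusted p = 0.478; unadjusted p = 0.00441). DESeq2 gave an adjusted p of 0.00535 for the same difference. The exosome values rest on 10 reads in Ang and 45 in Con, and DDX60 did not pass the filter on low counts in the exosome libraries alone. The depth of the exosome libraries moved with the label, at 535442 to 587783 gene reads in Ang and 717263 to 745311 in Con, and its part in the result was not tested.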

How the results depend on the processing

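Depth limits the exosome values, since no member there passed 87 reads in a library. Genes called between Ang and Con in cells numbered 0, and 60 with DESeq2; of the members, DESeq2 called 1. In exosomes 1 gene was called, and 16 with DESeq2, 3 without a filter, 0 with the replicate block and 22 in the fit to all 12 libraries. Between exosomes and cells 4380 of 11811 genes were called, and 2571 with Ang alone and 2412 with Con alone. Members called were 9, 5 and 2 of 23, where the contrasts within 1 condition compare fewer samples. For the difference between compartments 3 genes were called, and 368 with DESeq2 and 1 with the replicate block; DESeq2 called 1 member. Leaving out 1 library gave 0 to 3 genes in cells, 1 to 4 in exosomes, 3539 to 4535 between exosomes and cells and 1 to 17 for the difference. Members called were then 0 to 0 in each Ang against Con test and in the difference, and 6 to 11 between exosomes and cells. The sign of the log2 fold change turned with 1 library left out for 12 of 29 members in cells, among them IFIH1 (-0.65 to 0.13) and STAT2 (-0.36 to 0.12), for 5 of 14 in exosomes, for 10 of 23 in the difference and for 2 of 23 between exosomes and cells; the cause was not tested. Deviations of same-numbered libraries from their group means had correlations over genes of -0.0438 to -0.00613 for Ang with Con. For exosomes with cells these were -0.0152 to 0.0166. The labels do not say whether same-numbered libraries share a culture. These correlations cannot settle it, since counting error enters each deviation, most in the shallow exosome libraries. With the replicate block, the calls of ISG15 (edgeR adjusted p = 0.0843) and IRF9 (0.0607) between exosomes and cells were lost. RIGI (0.0107), MX1 (0.029) and IFI6 (0.0338) passed with that block, and RLE factors lost IRF9 (0.0521).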
